A study of Mus musculus with 32 samples.

Results

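Phenylalanine tRNA is the adaptor that reads the phenylalanine codons during translation. In the mouse it is encoded by 7 genes, tRNA-Phe-GAA-1-1 to 1-5, 2-1 and 3-1, all with the anticodon GAA, and the first number of a name gives the isodecoder, that is the sequence of the tRNA body. RNA polymerase III transcribes tRNA genes from 2 promoter elements that lie inside the gene, the A box and the B box, and stops at a run of T residues that follows the gene. Since several copies make the same RNA, the open chromatin at each gene gives a reading that is specific to the locus, which can include that of close neighbours. The 6 copies described here are 1-2, 1-3, 1-4, 1-5, 2-1 and 3-1, which remain when 1-1 is deleted. They were chosen by name and make up 6 of the 7 tRNA-Phe copies and 6 of the 401 tRNA loci in the deposited tables.

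Accessibility was measured by ATAC-seq, which reads out open chromatin through the cuts of a transposase, in nuclei isolated from bulk brain and liver. The mice were on a C57BL/6N background, and either wild type or homozygous for a deletion of 1-1 (Phe11), 2-1 (Phe21) or 3-1 (Phe31). The general methods describe male mice, while the study's reporting summary states that its results rest on both sexes. Per the methods, the study used mice 10 weeks old and matched wild types to mutants by age, and it made all deletions with a single CRISPR guide injected into embryos, separated them by backcrossing and bred the lines for at least 10 generations. Wild type gave 5 brain and 7 liver libraries, Phe11 gave 4 of each tissue, and Phe21 and Phe31 gave 3 of each by label, which makes 32 libraries in 3 batches.

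Brain libraries held 20315 to 35565 reads over the 401 loci and liver libraries 4719 to 23754. The neuronal gene tRNA-Arg-TCT-4-1 separated the tissues in all libraries, at 101.4 to 147.3 reads on a common scale in the 15 brains and 0.806 to 21.5 in the 17 livers. Wild-type liver replicates 1 and 22 differed by less than sampling noise (chi-square over its degrees of freedom 0.440) and were counted as 1 sample. Wild-type livers 3 and 24 (0.744), wild-type brains 3 and 18 (0.741) and Phe11 livers 6 and 20 (0.764) were also closer than sampling noise, by less, and were kept apart. These are called near pairs. The 3 wild-type livers of batch 3 stood apart from those of batches 1 and 2, with a chi-square over its degrees of freedom of 2.19 to 2.59, against at most 1.15 within batches 1 and 2. The liver libraries labelled Phe31 belong to batch 3 too. They kept their reads at 3-1 and had 2 reads at 1-1 against 29 in wild type, so their label goes against the data and they are called the libraries labelled Phe31. Nothing in the labels says which samples of a group came from separate mice, so p-values measure the spread between these samples. The study describes as many control mice as there are wild-type brains and wild-type livers of batches 1 and 2, by which the close wild-type pairs would be separate mice. In bulk nuclei, fewer cells with an open locus and less opening per cell cannot be told apart.

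The gene sequences are shown because they set which reads can be assigned to a copy. Copies 1-2 to 1-5 are identical to 1-1 over all 73 bases, while 2-1 differs from them by the substitutions C3T and G70A and 3-1 by G57A, with positions counted from the 5′ end of the gene. The sequences below, read from GRCm39 in the sense of the tRNA, have the substituted bases in capitals. The last line is the CRISPR target with its PAM in capitals, which matched all 7 copies exactly and covers the anticodon at bases 34 to 36.
tRNA-Phe-GAA-1-2 to 1-5: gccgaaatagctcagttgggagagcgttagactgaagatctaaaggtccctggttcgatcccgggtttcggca
tRNA-Phe-GAA-2-1: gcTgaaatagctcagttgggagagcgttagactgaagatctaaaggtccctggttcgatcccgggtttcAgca
tRNA-Phe-GAA-3-1: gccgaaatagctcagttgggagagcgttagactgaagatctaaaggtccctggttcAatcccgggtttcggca
CRISPR target: gcgttagactgaagatctaaAGG

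The B box motif searched, GGTTCGANNCC, was taken from bases 52 to 62 of 1-1 with its positions 59 and 60 free to vary. It was found there in 6 of the 7 copies and not in 3-1, whose G57A lies inside it. The base changed by G57A was fixed to that of 1-1, so copies with the body of 1-1 had to match and 3-1 could not. The search thus does not show that 3-1 lacks a B box, and promoter function was not tested. On either strand, the same letters occurred in 0.0396% of the 32851 RefSeq promoters when 73 bases of each were searched. Flanks were not shared, since 10% to 52% of the 50 bases on either side were identical between copies. A fragment therefore had to reach a flank to be assigned to 1 of the copies with the same body, and the shares below are shares of reads that could be assigned.

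On GRCm38.p6, the build of the files, 1-2 lies at chr10:80248964-80249036, 1-3 at chr13:21161405-21161477, 1-4 at chr14:118089525-118089597, 1-5 at chr19:12002236-12002308, 2-1 at chr19:12008545-12008617 and 3-1 at chr13:21882885-21882957. Copies 1-5 and 2-1 are neighbours 6236 bp apart, and 1-3 and 3-1 lie 721407 bp apart on chromosome 13. The surroundings differ from copy to copy. In GENCODE vM39 (GRCm39) 1-2 is 71 bp from Ndufs7, a gene for a subunit of respiratory complex I, 1-3 and 3-1 lie in the long non-coding RNA genes Gm32298 and Gm56563 outside any exon, and 1-4, 1-5 and 2-1 are intergenic. Within 100 kb there were 22 other tRNA genes around 3-1, 17 around 1-3, 7 around each of 1-5 and 2-1, 1 near 1-2 and 0 near 1-4. The tRNA gene near 1-2, n-TNgtt7, lies 123 bp from it. Changes at 1-2 were therefore not separated from changes in the open chromatin of n-TNgtt7 or Ndufs7.

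The first question was how open each copy is in wild-type brain and liver. In brain, 1-3 and 1-2 were the most open of the 6 and 2-1 was nearly closed. As a share of the reads over the 7 tRNA-Phe loci, 1-3 held 20.5% ± 0.978 (SD, n = 5), 1-2 17.4% ± 1.92, 1-4 14.4% ± 1.42, 1-5 11.5% ± 0.662, 3-1 10.3% ± 1.48 and 2-1 1.86% ± 0.985, and the rest, 24.05% ± 2.31, fell on 1-1. The ranges of 1-3 and 1-2 overlapped, as did those of 1-2 and 1-4 and those of 1-5 and 3-1, while 1-4 was separate from 1-5 and 3-1 from 2-1. Copies with the same 73 bases thus spanned 11.5% to 24.05%.

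In liver of batches 1 and 2 the order was another. Copy 1-5 came first with 29.7% ± 2.46 (SD, n = 3), followed by 1-2 with 17.7% ± 2.57, 1-4 with 15.8% ± 0.445, 3-1 with 12.6% ± 1.04, 1-3 with 10.4% ± 1.61 and 2-1 with 1.49% ± 0.703. The ranges of 1-2 and 1-4 overlapped as did those of 3-1 and 1-3, and the other neighbours among these 6 were separate. Here 1-1 held 12.2% ± 1.72. The 7 loci together took 1.69% ± 0.0921 (SD, n = 5) of all tRNA reads in brain and 1.85% ± 0.0505 (SD, n = 3) in these livers, and 1.32% ± 0.147 (SD, n = 3) in the livers of batch 3, below all the others.

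**Figure D1:**
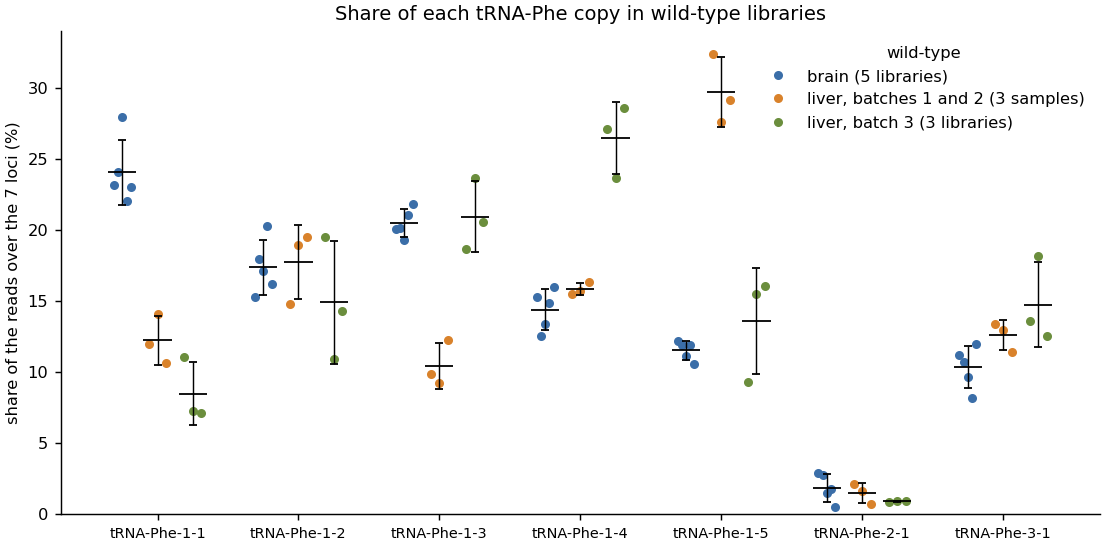
Share of the reads over the 7 tRNA-Phe loci (y axis, percent) at each copy (x axis) in wild-type brain, liver of batches 1 and 2, and liver of batch 3. Points are samples, with replicates 1 and 22 of liver averaged, and bars are the mean ± SD; 1-5 stands at 29.7% in liver of batches 1 and 2 and at 11.5% in brain, and 1-4 leads in liver of batch 3.

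The share of 1-5 was higher in these livers than in brain. Its share was 12.2%, 10.6%, 11.9%, 11.1% and 11.9% in wild-type brain replicates 1, 2, 3, 16 and 18, from 39 to 51 reads. In liver it was 27.2% in replicate 1, 32.4% in replicate 3, 31.03% in replicate 22 and 27.6% in replicate 24, from 36 to 51 reads. Every one of these livers lay above every brain, and the 95% Wilson intervals did not meet, since the highest upper bound in brain was 15.8% and the lowest lower bound in liver 21.1%. Such intervals cover counting error only. With replicates 1 and 22 as 1 sample, the share was 18.2 percentage points higher in liver (exact permutation p = 0.0179, two-sided, the smallest that 5 against 3 samples allow).

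Copy 1-3 showed the opposite direction. Its share lay between 19.3% and 21.8% in the 5 wild-type brains, and was 12.4%, 9.86%, 12.1% and 9.19% in liver replicates 1, 3, 22 and 24. The groups did not overlap, and the mean difference was -10.0 percentage points (exact permutation p = 0.0179, two-sided, the smallest that 5 against 3 samples allow). The other copies kept closer shares in the 2 tissues. Copy 1-2 differed by 0.374 percentage points (exact permutation p = 0.821), 1-4 by 1.44 (exact permutation p = 0.161), 2-1 by -0.372 (exact permutation p = 0.607) and 3-1 by 2.25 (exact permutation p = 0.0893), in each case liver minus brain with overlapping ranges. At an unadjusted p under 0.05, 2 of the 6 shares differed, and after Benjamini-Hochberg adjustment over the 6 tests none did (adjusted p = 0.0536 for 1-3 and 1-5 by exact permutation). With 2 copies at the smallest p, no lower adjusted p was possible for them, so this is a limit of the sample numbers. With each library counted on its own, 1-3 and 1-5 passed, and with the near pairs also averaged, a choice made after seeing the data that leaves 4 brains and 2 livers, the p of both was 0.0667 (exact permutation), the smallest possible there. The differences were 18.3 percentage points for 1-5 and -9.52 for 1-3 in batch 1, and 17.8 and -9.54 in batch 2. These are not independent values, since wild-type livers 1 and 3 of batch 1 were as close to 22 and 24 of batch 2 as given above. With the wild-type livers of batch 3 added, 6 liver samples in all, the share of 1-5 was 10.1 percentage points higher in liver (exact permutation p = 0.0455) and that of 1-3 differed by -4.78 points (exact permutation p = 0.136), both with overlapping groups.

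A share of a sum falls when another copy rises, so the tissues were also compared on a common scale over all 32 libraries, set by size factors over the 401 loci. The reads on this scale rose from 29.2 ± 2.79 (SD, n = 5) in brain to 81.0 ± 4.93 (SD, n = 3) in liver of batches 1 and 2 at 1-5, and fell from 51.8 ± 3.89 to 28.4 ± 3.81 at 1-3. The log2 change was 1.45 (SE 0.129, adjusted p = 3.4e-08 by limma) for 1-5 and -0.85 (SE 0.134, adjusted p = 2.82e-05) for 1-3. Copy 3-1 rose from 26.04 ± 3.16 to 34.4 ± 3.33, with a log2 change of 0.39 (SE 0.162, adjusted p = 0.0372 by limma), and did not pass with batch as a term (adjusted p = 0.0614). This call was also lost without any 1 of wild-type brain replicates 3, 16 and 18 or liver replicates 1, 3 and 24, where the change ran from 0.26 to 0.40. Copies 1-2 (0.14, SE 0.147) and 1-4 (0.25, SE 0.140) did not pass by limma, whereas edgeR on recovered reads called 1-4 (0.37, adjusted p = 0.0455) and not 1-2 (0.29, adjusted p = 0.0963), and 2-1 had too few reads to be tested. On this scale the tissues did not overlap at 1-4, 1-5 and 3-1 (higher in liver) and 1-3 (lower), beside 66.5% of the 239 loci, 26.8% higher and 39.7% lower. The 3 called by limma of 5 tested (4 by edgeR) stand against 72.0% of the 239 loci tested that were called between the tissues, 27.6% higher and 44.4% lower in liver.

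The wild-type livers of batch 3 had another pattern. There the share of 1-5 was 9.32%, 15.5% and 16.1% in libraries a, b and c, from 11 to 18 reads, with a mean of 13.6% ± 3.73 (SD, n = 3), which overlapped brain and lay below the other livers. Copy 1-4 led with 27.1%, 23.6% and 28.6%, and 1-3 followed with 18.6%, 23.6% and 20.5%. On the common scale 1-5 was at 26.4 ± 4.99 (SD, n = 3) in these livers, against 81.0 in the others. With batch 3 livers in place of the others, 1-5 changed by -0.15 (adjusted p = 0.456 by limma), 1-4 by 0.51 (adjusted p = 0.00562), 1-2 by -0.59 (adjusted p = 0.0152) and 1-3 by -0.32 (adjusted p = 0.0274), liver minus brain on the log2 scale. With all wild-type libraries in the fit, 1-5 no longer passed (0.65, SE 0.320, adjusted p = 0.0878 by limma), nor did 3-1 (0.27, adjusted p = 0.169), while 1-3 (-0.59, adjusted p = 0.00430) and 1-4 (0.38, adjusted p = 0.0273) did. With batch 3 livers in place of the others, the direction of 1-3 and 1-4 on the common scale was that of the other livers, and that of 1-2 and 1-5 was not. Between the 2 sets of wild-type livers, 1-3 and 1-4 were higher and 1-5 lower in batch 3 without overlap, beside 42.7% of all 239 loci without overlap. Batch 3 holds no brain, so batch and tissue cannot be told apart in it.

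The same measure was then taken over all genotypes. As a percent of reads over the 401 loci, 1-5 held 0.495% to 0.619% in the 11 livers of batches 1 and 2, 0.169% to 0.284% in the 15 brains and 0.127% to 0.198% in the 6 livers of batch 3. The 11 livers did not overlap either of the other sets, in wild type, Phe11 and Phe21 alike. Such separation was common. In wild type on the common scale, 66.5% of the 239 loci did not overlap between these livers and brain, and 42.7% between the 2 sets of livers. The share of loci without overlap over all genotypes was not counted. Copy 1-3 held 0.233% to 0.421% in brain, 0.175% to 0.288% in the livers of batches 1 and 2 and 0.170% to 0.377% in those of batch 3, with ranges that overlapped.

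**Figure D2:**
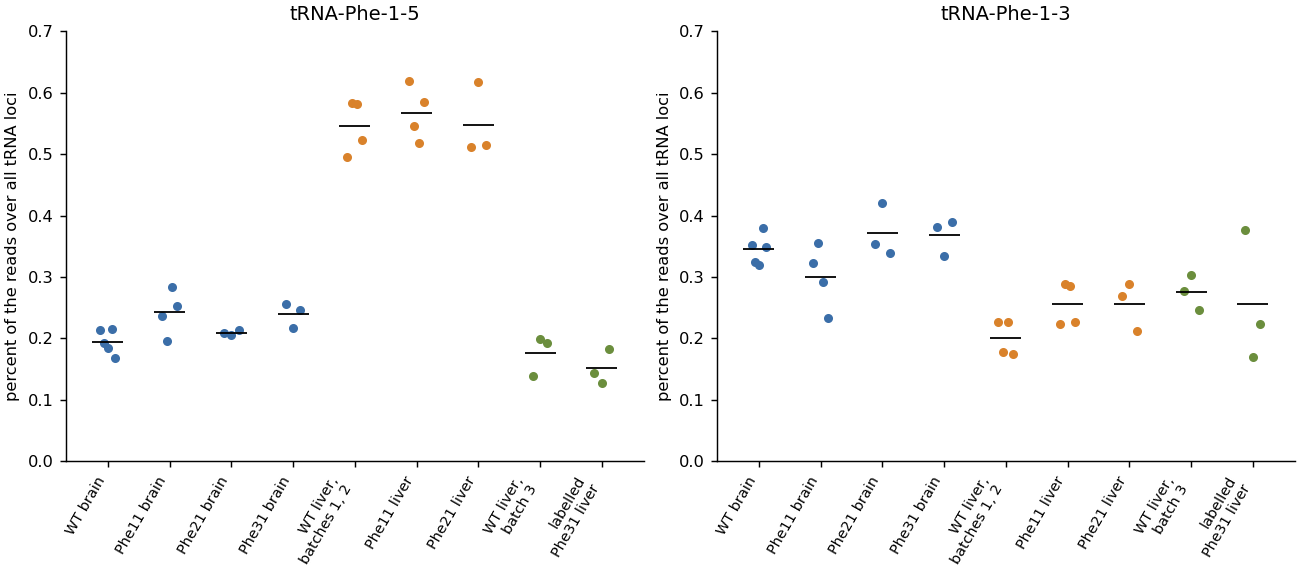
Percent of the reads over all 401 tRNA loci (y axis) that fell on 1-5 (left) and 1-3 (right) in each of the 32 libraries, by group (x axis), with the group mean as a line and no averaging of libraries. For 1-5 the livers of batches 1 and 2 lie between 0.495% and 0.619%, above all brains and above all livers of batch 3.

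The peak lists gave a second, coarser reading of the same loci. The authors' consensus peaks, of which there is 1 list per comparison, overlapped 1-2, 1-3, 1-4, 1-5 and 3-1 in all 6 lists and 2-1 in none. For comparison, 52.8% to 56.5% of the 430 RefSeq tRNA genes had a peak in the 3 brain lists and 40.9% to 50.2% in the 3 liver lists. The peak over 1-3 was 1091 to 1140 bp wide in brain and 290 to 394 bp in liver. The peak over 1-2 was 1218 to 1256 bp in brain, 3456 and 2961 bp in the Phe11 and Phe21 liver lists, and 977 bp in the list of the libraries labelled Phe31. That over 1-5 varied little, from 416 to 436 bp in brain and 394 to 553 bp in liver. Each list pools wild-type and knockout samples, so widths were not tested.

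The second question was how each remaining copy changed when 1 copy was deleted. In brain, none of the intact copies tested passed by limma in any of the 3 knockouts. In liver, 1-2 fell in Phe11 and 3-1 fell in Phe21 by limma, both without a call by DESeq2, and no intact copy was called higher in either tissue by limma. The levels are normalised counts, that is reads divided by 1 size factor per library, which the authors set within each comparison. Changes are on the scale of log2 of this count plus 1. They were fitted over all loci with a mean count of at least 10, which 2-1 missed in every comparison.

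**Figure D3:**
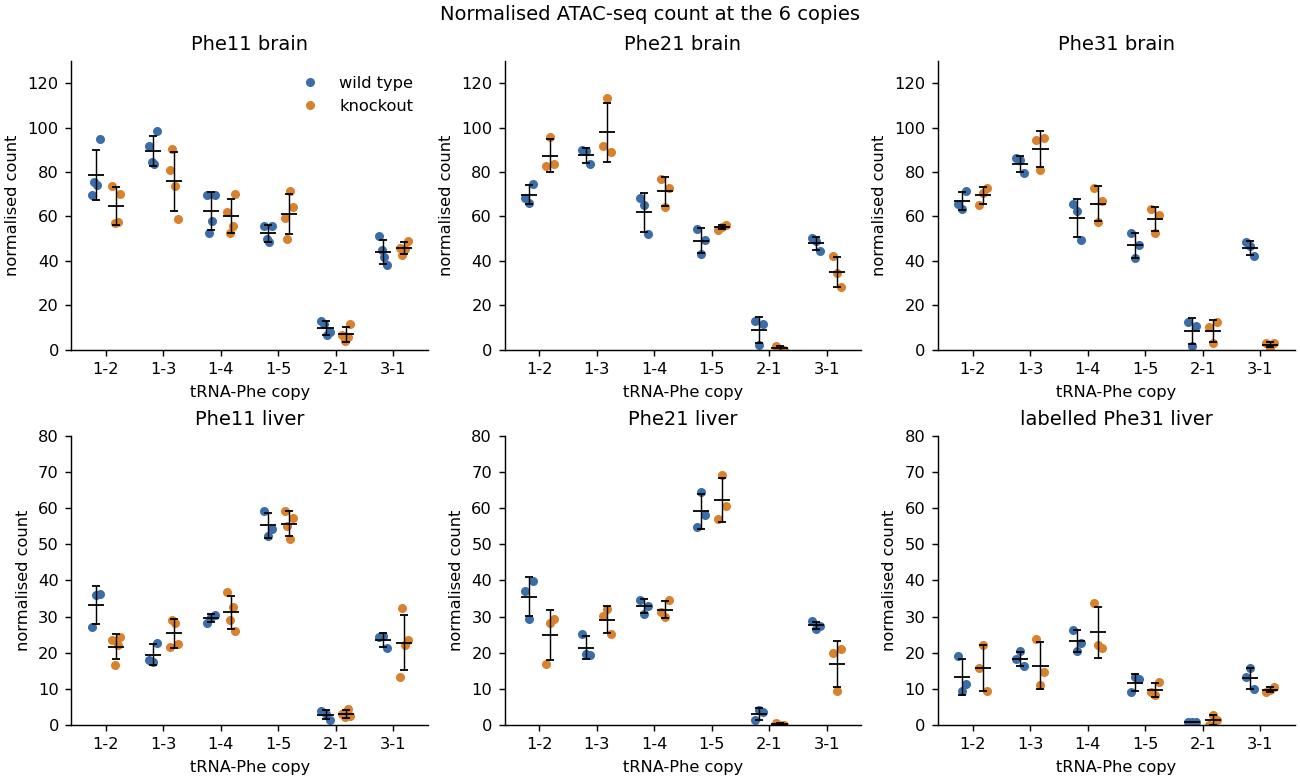
Normalised count (y axis) at the 6 copies (x axis) in wild-type and knockout libraries of the 6 comparisons, with separate y ranges for brain and liver. Points are samples and bars are the mean ± SD; 3-1 is at 2.20 in Phe31 brain and at 9.74 in the liver libraries labelled Phe31.

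Copy 1-2, which shares its sequence with the deleted 1-1, was lower in Phe11 liver. Its normalised count was 34.0 and 38.6 in wild-type replicates 1 and 22 (36.3 as 1 sample), 27.03 in replicate 3 and 35.99 in replicate 24. In Phe11 liver replicates 4, 6, 20 and 21 it was 23.5, 16.6, 22.1 and 24.3. Every knockout sample lay below every wild-type sample. The means were 33.1 ± 5.26 (SD, n = 3) and 21.7 ± 3.47 (SD, n = 4), or 65.4% of wild type. The log2 change was -0.59 (SE 0.206, adjusted p = 0.0423 by limma), from 111 and 123 reads in all.

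By limma this was the only call among the 5 copies tested in Phe11 liver (1 by edgeR and 0 by DESeq2), against 10.5% of the 209 loci tested (3.83% higher and 6.7% lower). The change was -0.59 in batch 1 (adjusted p = 0.571 by limma) and -0.66 in batch 2 (adjusted p = 0.150). Near pairs of livers span the 2 batches in wild type and in Phe11, so these are not independent values either, and with the near pairs also averaged the change was -0.58 (adjusted p = 0.162 by limma). The call was lost without any 1 of the 4 wild-type livers or of Phe11 replicates 6, 20 and 21, with log2 changes from -0.68 to -0.50, and with DESeq2 on recovered reads (adjusted p = 0.335). It held with edgeR (adjusted p = 0.0241).

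The other knockouts gave changes of 1-2 in both directions. In Phe21 liver it was 37.0, 29.4 and 39.9 in wild-type replicates 1, 3 and 24 and 16.9, 28.3 and 29.3 in Phe21 replicates 7, 8 and 9, with all knockout values below all wild-type values. The change of -0.53 (SE 0.218, adjusted p = 0.0925 by limma) did not pass, while edgeR on recovered reads called it (-0.70, adjusted p = 0.0164) and DESeq2 did not (-0.66, adjusted p = 0.117). The limma value was -0.28 without Phe21 replicate 7. Both liver comparisons use wild-type replicates 1, 3 and 24, so they are not independent. In Phe21 brain it stood above wild type in all samples, at 82.6, 95.98 and 83.5 against 68.4, 66.3 and 74.7, with a change of 0.32 (SE 0.117, adjusted p = 0.168 by limma) that did not pass. In Phe11 brain the change was -0.28 (SE 0.118, adjusted p = 0.0722), with -0.16 in batch 1 and -0.40 in batch 2, and it passed without wild-type replicate 1 (-0.32, adjusted p = 0.0422) or Phe11 replicate 5 (-0.37, adjusted p = 0.0296). In Phe31 brain and in the liver libraries labelled Phe31 the changes were 0.06 (SE 0.127) and 0.21 (SE 0.300).

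Copy 3-1, the only gene of its isodecoder, was lower in Phe21 liver. In Phe21 liver replicates 7, 8 and 9 its normalised count was 19.9, 9.43 and 20.9, against 28.6, 26.6 and 27.4 in wild-type replicates 1, 3 and 24. All 3 knockout samples were below the wild-type samples, with replicate 8 the lowest, at 12 reads. The means were 27.5 ± 1.03 (SD, n = 3) and 16.7 ± 6.36 (SD, n = 3), or 60.8% of wild type, and the log2 change was -0.76 (SE 0.269, adjusted p = 0.0404 by limma). By limma it was the only call among the 5 intact copies tested, where edgeR called 2, 1-2 and 3-1 (-0.82, adjusted p = 0.0197), and DESeq2 called 0 (3-1 at adjusted p = 0.0835), against 13.4% of the 201 loci tested (8.46% higher and 4.98% lower). Without replicate 8 the change was -0.41 (adjusted p = 0.359), and without any 1 of the 3 wild-type livers the adjusted p was 0.0512 to 0.147 while the change stayed at -0.78 to -0.73.

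Phe21 brain had the same direction for 3-1. The counts were 42.2, 34.4 and 28.4 in replicates 7, 8 and 9 against 50.2, 49.0 and 44.3 in wild-type replicates 1, 2 and 3, again without overlap, and the change of -0.46 (SE 0.178, adjusted p = 0.187 by limma) did not pass. In Phe11 the changes were 0.06 (SE 0.131) in brain and -0.10 (SE 0.219) in liver, the latter from -0.35 to 0.17 with 1 library left out. In Phe11 liver the knockout values ran from 13.3 to 32.2 and covered the whole range of wild type.

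Where 3-1 itself was deleted, in Phe31 brain, it kept 2.84, 0.940 and 2.84 normalised counts in replicates 10, 11 and 12 (3, 1 and 3 reads) against 48.3, 46.8 and 42.3 in wild type. By reads 4.79% remained, with a 95% counting interval of 1.89% to 10.1% (exact permutation p = 0.1, two-sided, the smallest that 3 against 3 allow). The copy passed the filter on low counts there only through its wild-type level, so no fitted p is given. The liver libraries labelled Phe31 had 9.01, 9.62 and 10.6 against 13.2, 15.6 and 9.91, with overlap. There 75.8% remained by reads, with an interval of 44.1% to 126.5% (exact permutation p = 0.2, two-sided), and the log2 change was -0.35 (SE 0.330, adjusted p = 0.633 by limma).

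Copy 1-3, again of the sequence of 1-1, did not pass in any knockout. In Phe11 liver it was 21.5, 29.1, 28.3 and 22.3 against 22.8 (replicates 1 and 22 as 1 sample), 18.02 and 17.5 in wild type, with overlap, and the change was 0.36 (SE 0.219, adjusted p = 0.383 by limma). In Phe21 liver it was 30.1, 32.2 and 25.1 against 25.1, 19.6 and 19.4, where the lowest knockout value (25.12) and the highest wild-type value (25.05) nearly met, and the change was 0.43 (SE 0.238, adjusted p = 0.208). In Phe11 brain the values were 80.7, 90.5, 73.6 and 58.8 in replicates 5, 6, 13 and 14 against 91.6, 84.4, 83.8 and 98.4 in wild type. This change of -0.25 (SE 0.111, adjusted p = 0.0849) was -0.04 in batch 1 and -0.46 in batch 2, and in batch 2 alone it passed (adjusted p = 0.0321). The remaining changes of 1-3 were 0.15 (SE 0.116) in Phe21 brain, 0.10 (SE 0.116) in Phe31 brain and -0.21 (SE 0.274) in the liver libraries labelled Phe31.

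The copies 1-4 and 1-5 complete the set with the sequence of 1-1. For 1-4 the 6 changes lay between -0.05 and 0.21 and none had groups that did not overlap. For 1-5 the brain changes were 0.21 (SE 0.121) in Phe11, 0.17 (SE 0.143) in Phe21 and 0.32 (SE 0.153) in Phe31, all above 0, with adjusted p by limma from 0.186 to 0.723. In Phe31 brain its counts of 63.3, 52.7 and 60.6 lay above the wild-type counts of 52.4, 41.3 and 47.1. In liver of batches 1 and 2, where 1-5 was the most open copy, its level was 55.8 ± 3.40 (SD, n = 4) in Phe11 against 55.3 ± 3.52 (SD, n = 3), and 62.3 ± 6.14 (SD, n = 3) in Phe21 against 59.1 ± 4.84 (SD, n = 3). The changes were 0.01 (SE 0.160) and 0.07 (SE 0.148), and -0.24 (SE 0.339) in the libraries labelled Phe31.

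**Figure D4:**
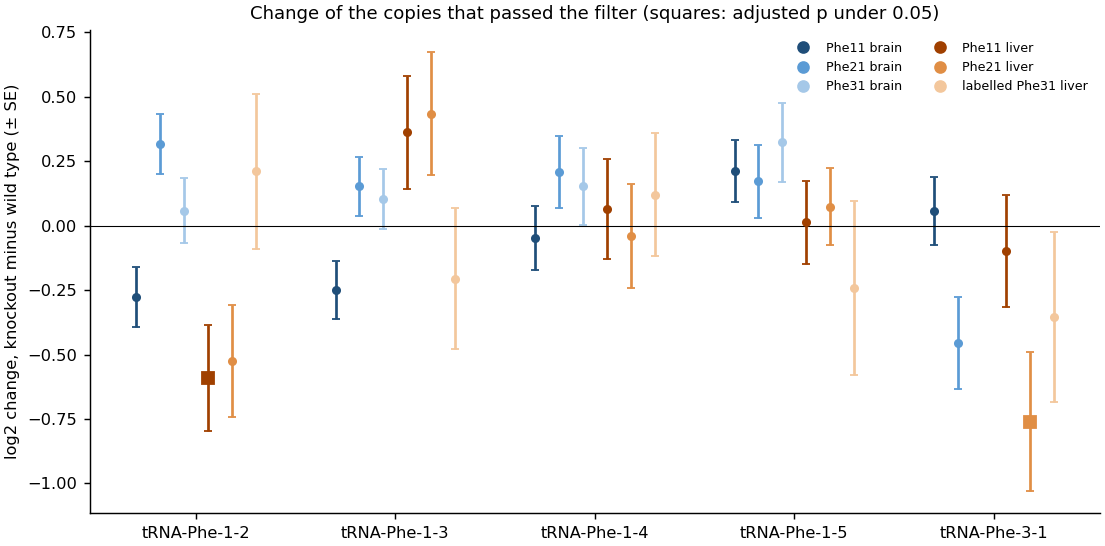
Log2 change, knockout minus wild type, with its SE (y axis) of the 5 copies that passed the filter (x axis) in the 6 comparisons, leaving out the deleted 3-1 in Phe31 brain. Large squares mark an adjusted p under 0.05, which by limma only 1-2 in Phe11 liver (-0.59) and 3-1 in Phe21 liver (-0.76) reached.

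Copy 2-1 had few reads everywhere. Wild-type brains had 12, 2, 9, 6 and 7 reads in replicates 1, 2, 3, 16 and 18, and wild-type livers 1 to 3 reads each. In Phe21 brain, where it was deleted, the 3 libraries had 2, 0 and 0 reads, and 7.24% remained with a 95% counting interval of 0.828% to 29.3%. In Phe21 liver there were 1, 0 and 0 reads against 1, 3 and 3, with an interval of 0.198% to 69.5%. Both deletions gave an exact permutation p of 0.1, again the smallest possible. Where 2-1 was intact its normalised count was 70.4% of wild type in Phe11 brain (exact permutation p = 0.2, n = 4 against 4), 102% in Phe31 brain (exact permutation p = 0.9, n = 3) and 109% in Phe11 liver (exact permutation p = 0.743, n = 3 against 4). The counting intervals by reads were 42.1% to 117.7%, 59.0% to 194.9% and 48.3% to 322.6%, so a change of the size seen at 1-2 or 3-1 was not detectable there. In the liver libraries labelled Phe31 there were 0, 2 and 1 reads against 1 in each wild type (exact permutation p = 0.7, n = 3), too few for a fold.

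The counts of calls over the copies were read against those of all loci. In brain 0 of 5 tested intact copies passed by limma in Phe11, where 28.1% of 263 loci did, with 2 at an unadjusted p under 0.05 and 0 by edgeR and by DESeq2. In Phe21 brain 0 of 5 passed, where 0.0% of 253 loci did, with 2 at an unadjusted p under 0.05 and 0 by the other tools. In Phe31 brain 0 of 4 passed, where 0.775% of 258 loci did, with 0 at an unadjusted p under 0.05 and 0 by the other tools. In the liver libraries labelled Phe31, with 3-1 counted among the copies present, 0 of 5 passed, where 10.7% of 178 loci did (1.69% higher and 8.99% lower), again with 0 at an unadjusted p under 0.05 and 0 by the other tools. Groups without overlap were found at 0 of 5 copies in Phe11 brain (27.8% of all loci tested), 2 of 5 in Phe21 brain (24.1%), 1 of 4 in Phe31 brain (11.2%, 6.2% higher and 5.04% lower), 1 of 5 in Phe11 liver (14.4%, 6.7% higher and 7.66% lower), 3 of 5 in Phe21 liver (31.3%, 20.4% higher and 10.9% lower) and 0 of 5, again with 3-1, in the libraries labelled Phe31 (23.6%). The median log2 change of the tested intact copies was -0.05, 0.17 and 0.13 in Phe11, Phe21 and Phe31 brain and 0.01, -0.04 and -0.21 in Phe11, Phe21 and labelled Phe31 liver (the last with 3-1, and -0.04 without it), beside medians of all loci of -0.01, 0.01, 0.01, 0.06, 0.10 and -0.01.

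The third question was whether a copy responded differently in brain and liver to the same deletion. The test was the difference between the 2 changes, liver minus brain, on the common scale. For Phe21 the largest was at 1-2, which was above wild type in brain and below it in liver, with a difference of -0.82 (SE 0.263, adjusted p = 0.0589 by limma). It did not pass by limma and passed by edgeR on recovered reads (-0.96, adjusted p = 0.00502) and with a pseudocount of 10, while no other copy passed in Phe21 by either tool. It also passed without wild-type liver replicate 3 or Phe21 liver replicate 8 or 9, with differences from -0.95 to -0.93. This left 0 of 5 copies by limma, with 1 at an unadjusted p under 0.05 and 1 by edgeR, where 6.49% of 231 loci passed (2.6% higher and 3.9% lower in liver). For Phe11 the largest was at 1-3, with 0.58 (SE 0.220, adjusted p = 0.101), and 0 of 5 passed by limma and by edgeR, with 1 at an unadjusted p under 0.05, where 9.35% of 246 loci passed (2.85% higher and 6.5% lower in liver). Wild-type libraries are shared between Phe11 and Phe21, so these are not separate tests. The deleted 1-1 is not among the 5 copies. In Phe11 its normalised count was 34.04% of wild type in brain, from 171 reads, and 13.97% in liver, from 15 reads. The difference at 1-1 was -1.22 (SE 0.359, adjusted p = 0.0295 by limma, and 0.00560 by edgeR). The signal at 1-1 was thus not lowered equally in the 2 tissues, and the cause was not tested.

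For the other aromatic amino acids, the 10 tRNA-Tyr-GTA and 8 tRNA-Trp-CCA genes, calls were counted by the same test. In Phe21 brain 0 of 9 tested tyrosine and 0 of 6 tested tryptophan genes passed by limma, with 2 and 1 at an unadjusted p under 0.05, and edgeR called 1 tyrosine gene, where 0.0% of all loci tested passed by limma. In Phe31 brain 0 of 9 and 0 of 7 passed by limma, with 1 and 0 at an unadjusted p under 0.05 and 0 by edgeR and by DESeq2, beside 0.775% of all loci. In Phe11 brain 2 of 9 tested tyrosine genes were higher and 3 lower, among them tRNA-Tyr-GTA-1-3 (0.47, SE 0.127, adjusted p = 0.00544 by limma), and 1 of 7 tested tryptophan genes was higher and 2 lower, beside 28.1% of all loci (14.8% higher and 13.3% lower). There edgeR called 3 tyrosine and 3 tryptophan genes and DESeq2 called 2 and 0. In liver, 2 of 8 tyrosine genes were lower in Phe11, 1 of 8 was higher in Phe21 and 2 of 7 were lower in the libraries labelled Phe31 by limma, beside 6.7%, 8.46% and 8.99% of all loci called in those directions. The counts were 2, 2 and 0 by edgeR and 0, 2 and 0 by DESeq2. For tryptophan, 0 of 6 passed in Phe11 liver (1 at an unadjusted p under 0.05, 0 by edgeR and by DESeq2), 1 of 5 was higher in Phe21 liver and 1 of 3 was lower in the libraries labelled Phe31, against 1 and 0 by edgeR and 0 and 0 by DESeq2. Between wild-type brain and liver, 2 of 9 tyrosine genes were higher in liver and 4 lower, and 5 of 6 tryptophan genes were lower by limma. There the remaining tRNA-Phe copies split into 2 higher and 1 lower, and 1-1 was also lower (-0.85, SE 0.132, adjusted p = 2.33e-05 by limma). Of all loci 72.0% were called (27.6% higher and 44.4% lower). By edgeR 7 tyrosine and 5 tryptophan genes were called.

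The loci whose level followed each copy most closely were found by Pearson's r of the log2 level on the common scale over 31 samples, among loci outside the tRNA-Phe family. They were tRNA-Thr-AGT-1-2 for 1-5 (r = 0.872), tRNA-Thr-AGT-1-1 for 1-3 (r = 0.825), tRNA-Cys-GCA-1-2 for 1-4 (r = 0.724), tRNA-Gly-GCC-4-1 for 1-2 (r = 0.697) and tRNA-Ile-AAT-1-5 for 3-1 (r = 0.675). The next in order were tRNA-Arg-CCT-2-1 for 1-5 (r = 0.820), tRNA-Ser-CGA-1-1 for 1-3 (r = 0.767), tRNA-Leu-AAG-1-1 for 1-4 (r = 0.718), tRNA-Leu-CAG-2-1 for 1-2 (r = 0.599) and tRNA-Gly-TCC-1-5 for 3-1 (r = 0.490). The samples share tissue, batch and depth, so these values are given as a description. Within tissues, for 1-5 and tRNA-Thr-AGT-1-2 r was 0.887 over the 16 liver samples and -0.131 over the 15 brains, and with tRNA-Arg-CCT-2-1 it was 0.827 and -0.493. For 1-2 and tRNA-Gly-GCC-4-1 it was 0.729 in liver and 0.0889 in brain, and for 1-4 and tRNA-Leu-AAG-1-1 0.606 and 0.112. The other 6 pairs had r from 0.292 to 0.677 in liver and 0.376 to 0.727 in brain, among them 1-3 and tRNA-Thr-AGT-1-1 with 0.623 and 0.609.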

How the data were processed

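ATAC-seq of brain and liver nuclei was analysed from the authors' deposited tables of tRNA loci. According to their methods and processing notes, the authors trimmed reads with Trim Galore 0.6.4, ran Bowtie2 2.4.1 against GRCm38.p6 with up to 20 alignments kept per pair, removed duplicates with Picard 2.23.8, kept alignments of quality 30 or more and fragments of at most 175 nt, and counted reads with featureCounts 2.0.0 over each GtRNAdb gene with 50 nt on either side. The deposited signal is this read count divided by a DESeq2 1.30.0 size factor, set within each of 6 comparison tables. Within a relative tolerance of 1e-06, 100% of values were whole multiples of 1 number per library, so reads were recovered. Files of the authors' own comparisons, which hold shrunken fold changes and s-values, were not used. Peaks (Genrich 0.6, DiffBind 3.0.8) gave positions only.

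Each knockout was compared with wild type by limma 3.58.1 (trend, two-sided, R 4.3.3) on log2(count + 1), with loci of mean at least 10, batch as a term for Phe11, and Benjamini-Hochberg adjustment over all loci tested at 0.05. Brain and liver, and the difference between their changes, were fitted on size factors over all 32 libraries. Shares and deleted copies were compared by exact permutation tests. edgeR 4.0.16 and DESeq2 1.42.0 on recovered reads were alternatives. Copies and lists were chosen with earlier results of these data known. All 6 copies are reported, with at most 2 called tyrosine or tryptophan genes named per comparison and the 2 most alike loci per copy. RefSeq genes were paired with GtRNAdb names by chromosome and order. The liver columns of batch 3 carry no sample number and were grouped by tissue and genotype. Depth sets the precision: a member had 0 to 139 reads in a library. Tables with separate size factors were not compared with each other.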

Additional observations from a re-analysis of the deposited data

How the results depend on the processing

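Of the wild-type comparisons, 1-3 stayed called lower in liver by limma under every alternative run, and edgeR called 4 copies in place of 3, with 1-4 added. With all wild-type libraries 2 were called, 1-3 and 1-4, while 1-5 (0.65, adjusted p = 0.0878) and 3-1 (0.27, adjusted p = 0.169) were not. The direction of 1-2 between tissues was negative with all wild-type libraries (-0.23) and with batch 3 livers in place (-0.59), the latter chosen after seeing the data, and 1-5 changed sign with batch 3 livers in place (-0.15). The share difference of 1-2 was -1.05 percentage points with all wild-type libraries, -2.47 with batch 3 livers in place and -0.21 to 1.85 with 1 library left out, and that of 1-3 was 0.469 with batch 3 livers in place. The number of copies whose share differed rose from 0 to 3 as a share of all tRNA reads and to 2 with every library counted on its own. The cause of these shifts was not tested.

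In Phe11 liver the number of intact copies called fell from 1 to 0 with no filter, with a mean of at least 30 (1-2 then not tested), with equal library totals, by DESeq2, within batch 1, within batch 2 and when near pairs of libraries were also averaged (chosen after seeing the data), and was 0 to 1 with 1 library left out. In Phe21 liver it was 0 with a mean of at least 30 (3-1 then not tested), with TMM, by DESeq2 and in batch 1 alone, 2 by edgeR (1-2 and 3-1), and 0 to 1 with 1 library left out. In Phe11 brain it was 1 in batch 2 alone and 0 to 1 with 1 library left out. The number of copies with a different Phe21 change in the tissues was 1 with a pseudocount of 10 and by edgeR, and 0 to 1 with 1 library left out.

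With 3-1 counted as present in the libraries labelled Phe31, chosen after seeing the data, 0 copies were called there, as without it. Small changes turned in sign without passing. In Phe11 brain 3-1 was -0.12 in batch 1 alone and -0.0038 to 0.13 with 1 library left out, and 1-4 was -0.12 to 0.0384 so. In Phe11 liver, batch 2 alone gave -0.010 for 1-4, -0.0224 for 1-5 and 0.18 for 3-1, and leaving out 1 library gave -0.0213 to 0.15, -0.0336 to 0.0578 and -0.35 to 0.17. In Phe21 liver 1-4 was 0.0367 with TMM and -0.10 to 0.0043 with 1 library left out, and 1-5 was -0.0279 by edgeR, -0.0187 by DESeq2 and -0.0021 to 0.14 with 1 library left out. In the libraries labelled Phe31, leaving out 1 gave -0.0595 to 0.52 for 1-2, -0.49 to 0.0300 for 1-3 and -0.0875 to 0.24 for 1-4. Differences between tissues with 1 library left out ran from -0.0041 to 0.16 (1-4) and -0.36 to 0.0341 (3-1) for Phe11, and from -0.15 to 0.0018 (1-5) and -0.49 to 0.0540 (3-1) for Phe21.

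Replicate numbers are shared by 6 pairs of brain and liver libraries, whose deviations correlated at -0.06 to 0.12 over 239 loci, above 0.1 in 2 of 6, and 3 of 6 brains correlated best with their own liver. Those 3 were the Phe21 pairs (0.10 to 0.12), and none of the wild-type and Phe11 pairs did (-0.06 to 0.05). Since not every pair passed 0.1, the numbers were not taken to pair the samples, which does not show that they are unpaired. With a replicate block, 2 copies were called between tissues in place of 3, the share difference of 1-2 was -0.0652 percentage points, and 0 interactions passed in Phe11 and in Phe21. Within a tissue, knockouts and wild types share no numbers. Depth limits 2-1 throughout.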
